A study of Mus musculus with 8 samples.

Results

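The deposited table places 9284 clusters of Argonaute HITS-CLIP reads in a 3' UTR. Of these, 387 contained at least 1 match to the seed of let-7 (4.17%, 95% Wilson interval 3.78 to 4.59). They were taken by 1 rule: the table names a gene in its 3' UTR column and counts 1 or more matches in its let-7a-5p column. The whole table holds 70142 clusters with 1834586 reads. The data come from FLAG-Ago HITS-CLIP, in which RNA is crosslinked by ultraviolet light to a tagged Argonaute protein, immunoprecipitated and sequenced. Forebrain was taken from mice of 8 to 14 weeks in 3 experiments. The genotype of the 5 Flag-Ago2 libraries was Camk2a-cre; Rosa-Stopfl/fl-Flag-Ago2. There the Camk2a promoter drives the Cre that switches on a tagged Ago2 transgene, expressed from the Rosa26 promoter. The 3 control libraries were Rosa-Stopfl/fl-Flag-Ago2, which carries the same transgene without Cre. Each immunoprecipitation used part of a single forebrain. The table gives 1 read count per cluster for the whole study and names no library. The 2 genotypes therefore could not be compared, no value has a replicate spread, and no test over samples was possible. For that reason intervals cover counting error only, with clusters, sites or genes taken as independent units. The libraries were made by PCR and the protocol mentions no molecular identifiers, so PCR copies may be counted as reads. The intervals do not reflect this.

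The let-7 family is a set of near-identical miRNAs, highly expressed in adult brain, that is known for restraining growth and stem cell programmes. An miRNA guides Argonaute to an mRNA by pairing of its seed, the bases near its 5' end, and the bound mRNA is then repressed or degraded. Lin28 proteins block let-7 maturation, and their mRNAs are in turn classical let-7 targets, as are those of Hmga2, Trim71, Ras genes and cell cycle genes.

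The seed column counts the 6 bases complementary to miRNA bases 2 to 7, and 13 columns of the table hold the same values in all clusters. These are let-7a to let-7g, let-7i, let-7j, let-7k, miR-98-5p, miR-202-3p and miR-1961, so a match belongs to the group and not to a single miRNA. The mature sequences below, from RefSeq on GRCm38.p6 with bases 2 to 8 in capitals, show what is shared and what differs. Of the 13, let-7j and miR-202-3p carry the seed GAGGUAU where the other 11 carry GAGGUAG, and the 3' parts differ between members.
let-7a-5p: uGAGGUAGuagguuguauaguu
let-7d-5p: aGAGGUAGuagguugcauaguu
let-7i-5p: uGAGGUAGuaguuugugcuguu
miR-98-5p: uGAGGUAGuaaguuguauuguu
let-7j: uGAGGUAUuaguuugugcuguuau
miR-202-3p: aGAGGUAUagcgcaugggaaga

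On the mRNA the 6-mer reads TACCTC. It is extended by a C before it, opposite miRNA base 8 (7mer-m8, CTACCTC), by an A after it (7mer-A1, TACCTCA), or by both (8mer, CTACCTCA). The sites of the clusters that lead the results are printed here from GENCODE M21 transcripts, 5' to 3' on the mRNA strand, with the matching bases in capitals and their mm10 coordinates (1-based, position of the 6-mer). All of them lie in 3' UTR exons. The first group holds sites of deep clusters and the second sites of known let-7 targets.
Jph4, chr14:55107780-55107785, minus strand, 6mer: aggaaaagtaccctccactctTACCTCcca
Fndc3a, chr14:72539656-72539661, minus strand, 7mer-m8: agcaatctagtgctatacttCTACCTCctc
Fndc3a, chr14:72539407-72539412, minus strand, 6mer: tacggatcattacctgaacagTACCTCttt
Nap1l1, chr10:111497171-111497176, plus strand, 8mer: gggtgggactgttgattcaaCTACCTCAac
Synj2, chr17:6038873-6038878, plus strand, 7mer-A1: ttgaacatccaaggatttgggTACCTCAgg
Khsrp, chr17:57022185-57022190, minus strand, 8mer: gatcgttgccaccttccaacCTACCTCAca
Nras, chr3:103064375-103064380, plus strand, 7mer-m8: ctgagacctcttcagaataaCTACCTCctc
Lin28b, chr10:45378649-45378654, minus strand, 7mer-m8: gtacatatacttgttagtaaCTACCTCtga
Gnptab, chr10:88445864-88445869, plus strand, 8mer: gatcttcatttgaaagtcacCTACCTCAgc

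In all, 388 matches were located in the annotated transcripts, in 382 of the 387 clusters, against 395 that the table counts. Hsbp1, Dnm1, Tmppe, Ube2w and Camk4 are the hosts of the 5 clusters with no located match. Of the located matches, 356 lay in a 3' UTR, 24 in coding sequence, 1 in a 5' UTR and 7 in non-coding transcripts such as Tug1. By type, 63 were 8mers (16.2%, Wilson interval 12.9 to 20.2), 90 were 7mer-m8 (23.2%, 19.3 to 27.6), 96 were 7mer-A1 (24.7%, 20.7 to 29.3) and 139 were bare 6mers (35.8%, 31.2 to 40.7). Of the matches in annotated 3' UTRs, 228 of 356 were longer than the 6-mer (64.0%, 58.9 to 68.9). Among all 2966 let-7 sites in the 3' UTRs of clustered genes, which include these 356, the share was 58.4% (56.6 to 60.2). That share lies just below the first interval, although the intervals overlap, and the difference was not tested. With the longer matches alone, 2.65% of the 3' UTR clusters carried let-7.

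The longest let-7 sites lay in clusters most often. Over the 3' UTRs of 4689 genes that overlap a cluster, 58 of 315 8mers lay in a cluster, or 18.4% (Wilson interval 14.5 to 23.1), against 128 of 1233 bare 6mers, or 10.4% (8.80 to 12.2). The 7mers stood between, with 81 of 663 7mer-m8 sites, or 12.2% (9.94 to 14.9), and 89 of 755 7mer-A1 sites, or 11.8% (9.68 to 14.3). Clusters covered 9.90% of the bases of the same 3' UTRs. The intervals of the 6mers and 7mer-A1 sites include this level. That of the 8mers lies above it, and that of the 7mer-m8 sites only just. The measures differ, because a site counted as in a cluster at an overlap of 1 base. The rule used the 6-mer alone, so the site type is a property it did not choose, but the difference between types was not tested, because the table has no column of a single library. At a minimum of 20 reads per cluster the 4 shares were 9.84% (7.02 to 13.6), 7.84%, 7.42% and 6.24% (5.03 to 7.74), in the same order but with overlapping intervals.

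The 8mer level also led in the families set beside it. For miR-26, 80 of 422 8mers lay in a cluster (19.0%, Wilson interval 15.5 to 23.0) and 272 of 2342 6mers (11.6%, 10.4 to 12.97), while its 7mer-m8 sites stood lowest at 9.49%. For miR-9 the 8mers stood at 14.1% (11.1 to 17.6) and the 6mers at 9.65% (8.63 to 10.8). For miR-128 both were higher, at 22.02% (18.8 to 25.7) and 16.015% (14.8 to 17.3). The let-7 intervals overlap those of miR-26 and those of miR-9 for each of the 4 types. Overlap alone cannot show that the shares are alike. The let-7 share stood above that of miR-9 in each of the 4 types. Against miR-26 it was higher for 7mer-m8 sites and lower for the other types. Over all types the shares were 12.0% (10.9 to 13.2) for let-7, 10.3% (9.49 to 11.1) for miR-9 and 12.6% (11.6 to 13.6) for miR-26. The let-7 and miR-9 intervals over all types overlap, but neither includes the share of the other family. Differences between families were not tested.

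**Figure D1:**
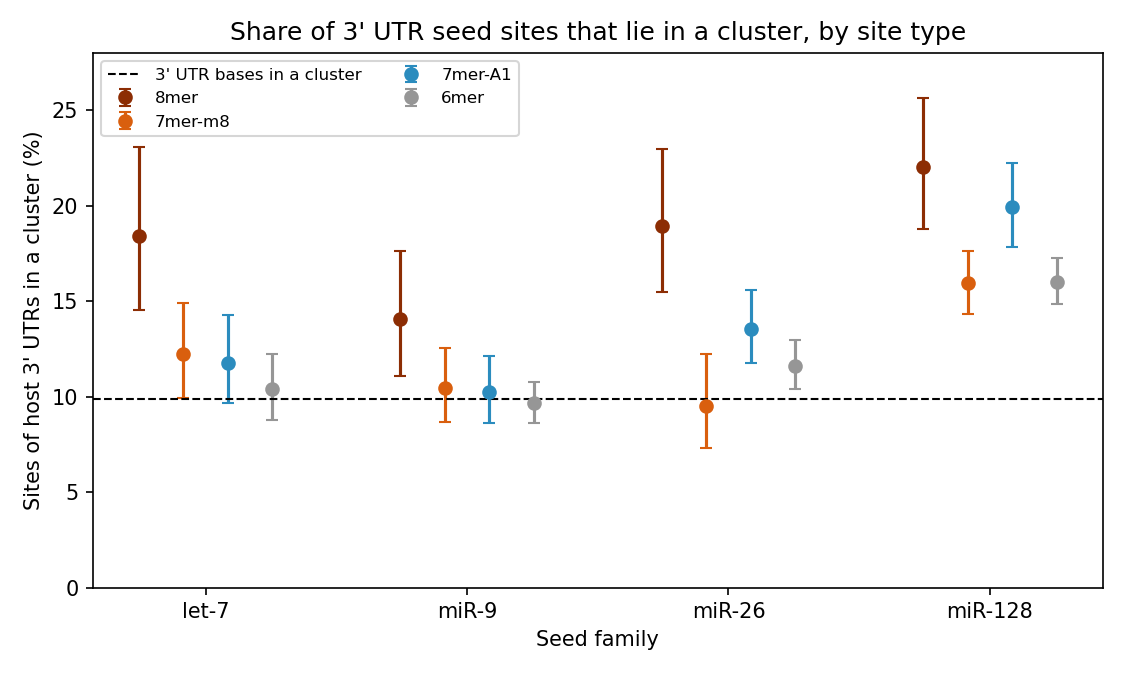
Percent of seed sites in the 3' UTRs of clustered genes that lie in a cluster (y axis), for let-7, miR-9, miR-26 and miR-128 (x axis), by site type; bars are 95% Wilson intervals and the dashed line is the share of 3' UTR bases in a cluster (9.90%). The let-7 8mers stand at 18.4% and the let-7 6mers at 10.4%.

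Clusters with let-7 were wider than the others, and their reads went with their width. Their median width was 182 bases (exact binomial interval of the median 170 to 191), against 143 (141 to 145) in the 8897 other 3' UTR clusters. They held a median of 24 reads (21 to 27), with quartiles of 15 and 40 and a range from 10 to 567, against 21 (21 to 22) with quartiles of 14 and 34. When the others were weighted to the widths of the let-7 clusters, in bins of 25 bases, their median was also 24. Per 100 bases of cluster, let-7 clusters held 13.75 reads (12.9 to 14.8) and the others 14.3 (14.1 to 14.6), or 13.2 at let-7 widths. A wider cluster holds more 6-mers: let-7 was in 2.31% of clusters of up to 100 bases, 2.85% of those of 101 to 150, 4.44% of those of 151 to 200, 5.57% of those of 201 to 300 and 12.5% of the wider ones. Among these widest clusters, 61 with let-7 had a median of 50 reads (40 to 62) and 426 without it 41.5 (38 to 45). At matched widths both medians of reads were 24, and the 13.2 reads per 100 bases of the others lay inside the let-7 interval.

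Deep let-7 clusters were few. With 100 or more reads there were 18 of 387, or 4.65% (Wilson interval 2.96 to 7.23), beside 2.69% of all 3' UTR clusters. The others stood at 2.61%, and at 3.72% when weighted to let-7 widths, which lies inside the let-7 interval. At 50 or more reads the shares were 18.3% for let-7 and 11.7% for the others, or 16.5% at let-7 widths. Site type did not order the reads: the median was 21 for the 63 clusters with an 8mer (16 to 35), 24.5 for the 90 with a 7mer-m8 (20 to 29), and 24 both for the 93 with a 7mer-A1 (20 to 28) and for the 136 with a 6mer (20 to 29). Per 100 bases, 8mer clusters held a median of 12.6 reads (9.68 to 16.5) and 6mer clusters 14.6 (13.6 to 16.1).

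**Figure D2:**
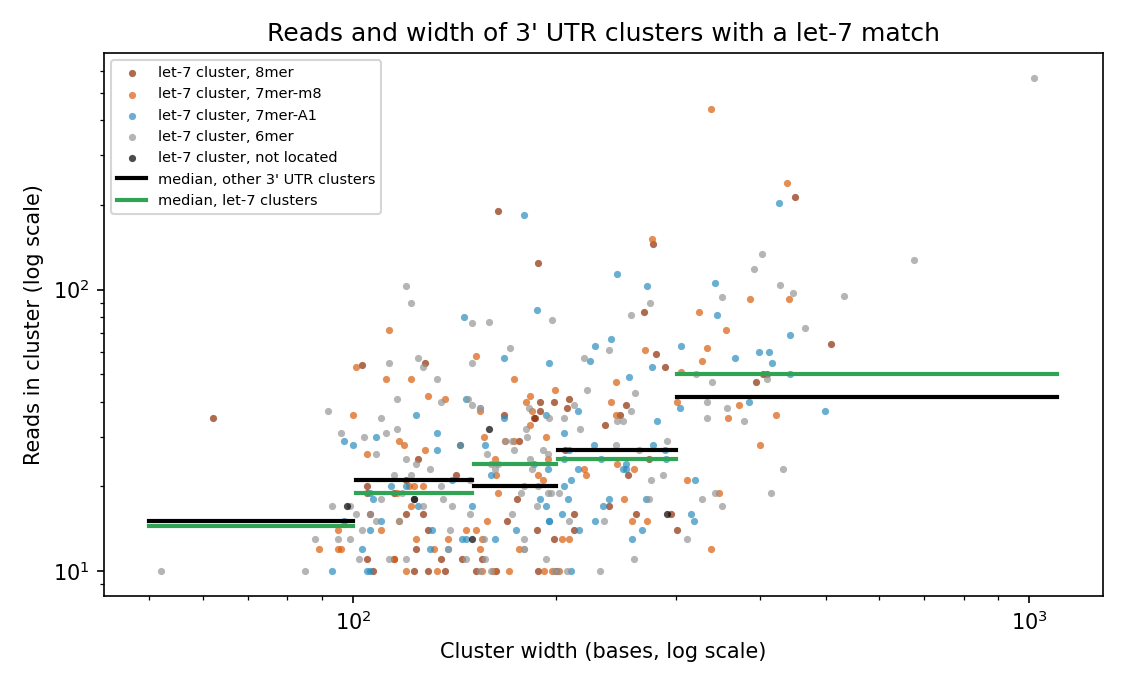
Reads (y axis, log scale) against width in bases (x axis, log scale) of the 387 let-7 clusters, coloured by their longest match; horizontal lines are medians within width classes for let-7 clusters (green) and other 3' UTR clusters (black). Medians go from 14.5 and 15 reads in the narrowest class to 50 and 41.5 in the widest.

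A larger share of 8mers than of bare 6mers lay near the centre of their cluster, although the intervals overlap. Within 25 bases of the centre were 24 of 63 8mers (38.1%, Wilson interval 27.1 to 50.4), 29 of 90 7mer-m8 (32.2%, 23.5 to 42.4), 28 of 96 7mer-A1 (29.2%, 21.02 to 38.9) and 30 of 139 6mers (21.6%, 15.6 to 29.1). The median distance from the centre was 36 bases for 8mers and 50.5 for 6mers. Set against the bases of all 3' UTR clusters in each band, 8mers had a density of 0.0517 matches per kb within 25 bases and 0.0339 beyond 100. The 6mers went the other way, with 0.0647 per kb within 25 bases and 0.108 beyond 100. Over all types the density was nearly flat, from 0.230 to 0.319 per kb. The trend over types was not tested. Matches lay on both sides of the centre, 204 of 388 downstream of it (52.6%, 47.6 to 57.5).

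**Figure D3:**
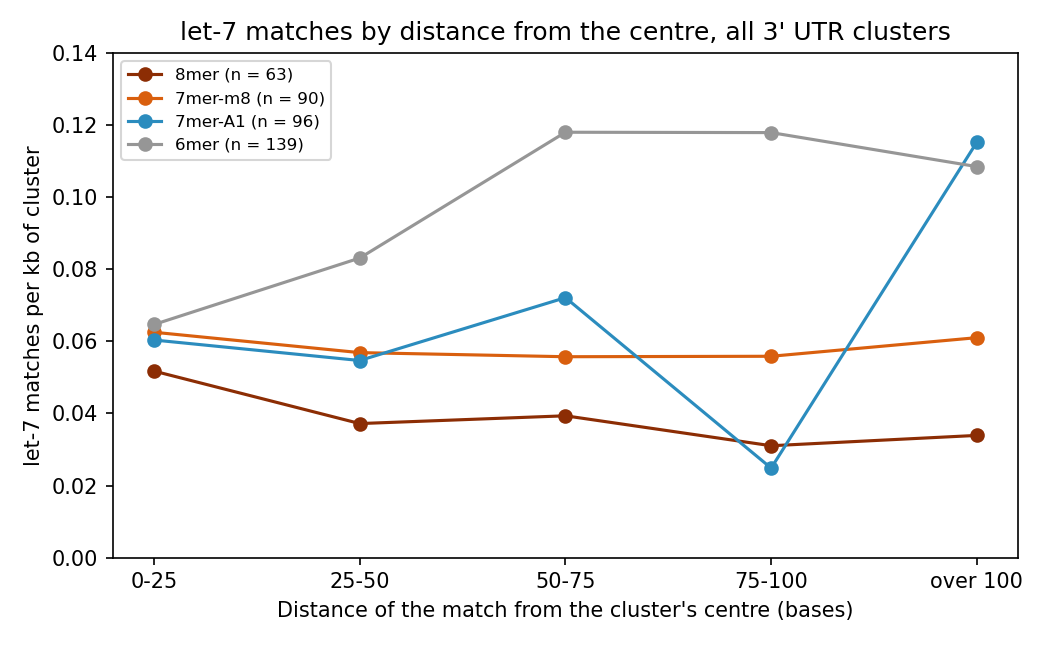
Matches per kb of cluster (y axis) in 5 bands of distance from the cluster's centre (x axis, bases), by site type, over the bases of all 3' UTR clusters. The 8mer density has its highest value in the central band (0.0517 per kb), where the 6mer density has its lowest (0.0647 per kb).

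The 10 deepest let-7 clusters held 134 to 567 reads. Each also held seeds of other brain families, from 2 in Slc20a1 to 6 in Rab15. Reads are counted over the whole cluster here and below, so they cannot be assigned to the let-7 site. Jph4, which encodes a junctophilin that couples the neuronal plasma membrane to the endoplasmic reticulum, held the deepest, with 567 reads over 1017 bases and a single 6mer at -177.5 bases from its centre (minus is upstream). That cluster is also the widest of the 387, and per 100 bases it held 55.8 reads. Fndc3a, a fibronectin domain gene on the list of known let-7 targets, had 437 reads over 339 bases, all of its 3' UTR reads, and carried both sites printed above. At 129 reads per 100 bases it was the densest of the let-7 clusters. Rab15, a GTPase of endosome recycling, had 240 reads over 439 bases, with a 7mer-m8 at the very edge, 216.5 bases from the centre. Epb41l1, a cytoskeletal linker at the membrane, had 204 reads over 426 bases around a 7mer-A1 only 12 bases from the centre. Synj2, a phosphoinositide phosphatase of vesicle recycling, had 185 reads in 179 bases, or 103 per 100 bases. Slc20a1, a phosphate transporter, had 151 reads with a 7mer-m8, and Elp2, a subunit of the Elongator complex, 134 with a 6mer. Of the 10 deepest, 3 were 8mer clusters, among them those of Nap1l1 and Khsrp.

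Among the 8mer clusters with the most reads, the match lay near the centre in some and at the edge in others. Nap1l1, a nucleosome assembly protein, had 191 reads in only 164 bases, or 116 per 100 bases, with its 8mer 30 bases from the centre. Khsrp, an RNA-binding protein known to promote let-7 maturation, had 145 reads in a single 3' UTR cluster with its 8mer 100 bases upstream of the centre. Others were those of Sowaha with 83 reads, Syt7, a synaptotagmin of slow calcium sensing, with 64, Rin1, a Ras effector, with 59, Scn4b, a sodium channel beta subunit, with 55, Tbc1d24, a regulator of synaptic vesicles, with 54, and the phosphatase Ppm1f with 53. Of these, Rin1 had its 8mer in coding sequence, although the table names its 3' UTR as well. The Tbc1d24 cluster was 103 bases wide with its 8mer 8.5 bases from the centre, while that of Syt7 lay at the edge of a cluster of 509 bases, at -253.5 bases from the centre.

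The let-7 clusters fell in 369 of the 4860 genes named in 3' UTR clusters, or 7.59%. Host genes had a median of 2 3' UTR clusters and 68 3' UTR reads, against 1 cluster and 33 reads in genes without let-7. A gene with more or wider clusters has more places for a match, so the rule itself favours this direction. Whether hosts differ from other genes apart from that was not tested. A let-7 cluster was the only 3' UTR cluster of 106 hosts, and among the other 263 it was the deepest in 111. The same counts were not made over all genes, so these cannot be read as high or low. With 2 or more let-7 clusters there were 19 genes, and 3 genes had 3. Among these, Dkk3, a secreted protein of the dickkopf family, had 41, 33 and 19 reads, or 93 of 115. Kcnq1ot1, a long non-coding RNA of an imprinted locus that the table lists as 3' UTR, had 15, 15 and 13 of 332 reads. Among genes with 2, named after their values were seen, Nap1l1 had 191 and 25 of 273 reads. Atp2a2, the calcium pump of the endoplasmic reticulum, had 50 and 10 of 522, both in clusters with an 8mer, the second of which lies in coding sequence. Both clusters of Hba-a1 and Hba-a2, 38 reads each, name both of these near-identical genes, so their reads cannot be assigned to either.

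No cluster had 3 let-7 matches and 8 had 2. In the 6 with both matches located, named after their values were seen, the matches began 30 bases apart in Nlk, 34 in Zfhx2, 44 in Chic1, 59 in Fam160b2, 96 in Pdpk1 and 249 in Fndc3a. Apart from Fndc3a these were shallow, with 12 to 22 reads. The other 2 were in Lingo1 with 39 reads and Tbce with 21.

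Of 50 genes listed from the literature, 23 had a 3' UTR cluster and 9 of these a let-7 cluster, or 39.1% (Wilson interval 22.2 to 59.2), beside 7.59% of all genes with a 3' UTR cluster. Its genes are listed because they are let-7 targets, so the share is not independent of the seed. Counted by sites, 10 of the 56 let-7 sites in the list's 3' UTRs lay in a cluster, or 17.9% (10.0 to 29.8), against 12.0% (10.9 to 13.2) of 2966 sites in all genes, a level within the list's interval. Fndc3a led with 437 reads. Nr6a1, an orphan nuclear receptor of early development, had 72 of its 90 3' UTR reads in a 7mer-m8 cluster of 113 bases. Igf1r, the receptor of insulin-like growth factor, had 38 of 162 reads in a cluster with a 7mer-A1 at -125.5 bases from the centre. Nras, the Ras GTPase, had 29 of 73 in a cluster with a 7mer-m8 lying 1.5 bases from the centre. The other members were Ccnd2 with 27, Gnptab with 22, Plagl2 with 13, Lin28b with 12 and Dicer1 with 10 reads. Lin28b, the inhibitor of let-7 maturation, had a 7mer-m8 1.5 bases from the centre of a cluster of 89 bases. Of the miRNA machinery list, Lin28b and Dicer1, the enzyme that releases mature miRNAs, were the 2 hosts among 10 genes with a 3' UTR cluster, and both clusters were near the table's minimum of 10 reads.

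The other gene lists held between 1 and 6 let-7 hosts each. The share over all genes with a 3' UTR cluster, 7.59%, is the level against which these counts stand. It makes no allowance for the number of clusters per gene. Ion channels had 6 of 21 (28.6%, Wilson interval 13.8 to 50.0), with the potassium channel Kcna2 at 90 of 366 reads, Kcnc1 at 48 and the calcium channel subunit Cacnb4 at 40. By sites, 6 of 26 of the list lay in a cluster (23.1%, 11.03 to 42.1), an interval that includes the 12.0% of all genes. Activity-induced genes had 3 of 8 (37.5%, 13.7 to 69.4), an interval above 7.59%. Of their sites, 3 of 5 lay in a cluster (60%, 23.1 to 88.2), an interval above 12.0% but from 5 sites alone. The hosts were the scaffold Homer1 with 55 reads, Arc, which controls AMPA receptor uptake, with 34, and the nuclear receptor Nr4a1 with 34. Glutamate and GABA receptors and scaffolds had 3 of 21 (14.3%, 4.98 to 34.6). They were Homer1, the AMPA receptor subunit Gria3 with 41 of 258 reads and the kainate receptor subunit Grik2 with 14. Insulin, Ras and MAP kinase genes had 4 of 26 (15.4%, 6.15 to 33.5). They were the kinase Mapk6 at 40 in a cluster with an 8mer, Igf1r at 38, Nras at 29 and the Ras activator Rasgrp1 at 10. RNA-binding and transcription regulators had 4 of 19 (21.1%, 8.51 to 43.3), an interval above 7.59%. Of their sites, 5 of 20 lay in a cluster (25%, 11.2 to 46.9), an interval that includes 12.0%. The hosts were the splicing regulators Rbfox2 at 106 of 280 reads and Nova1 at 33 in 2 clusters, followed by Bach2 at 23 and Elavl3 at 11. Axon guidance and adhesion genes had 1 of 20 (5%, 0.888 to 23.6), Sema4g with 11 reads in a cluster with an 8mer. The counts are small and their intervals wide, and apart from the ion channels and the known targets each rests on at most 4 genes. No list was tested.

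Cell type markers gave few hosts. The labels call all libraries Camk2a-neuron. Astrocyte markers had a 3' UTR cluster in 9 of 10 genes, oligodendrocyte markers in 6 of 10 and excitatory neuron markers in 7 of 12. Striatal neuron markers had one in 7 of 10, interneuron markers in 5 of 10, and microglial and vascular markers in 3 of 10 each. The same share over all genes is not given here, so these counts have no reference level. With let-7, excitatory, striatal, astrocyte and microglial markers had 0 of 7, 0 of 7, 0 of 9 and 0 of 3, counts that allow shares of up to 29.9% or more (upper Wilson bounds) and that include the 7.59% of all genes. Oligodendrocyte markers had 2 of 6, the myelin genes Cnp with 57 reads and Mobp with 19. Interneuron markers had 1 of 5, Gad1, a GABA-synthesising enzyme, with 29 reads. Vascular markers had 1 of 3, Pdgfrb, a pericyte receptor, with 76. The part of each cell type in the let-7 clusters was not tested. Reads of Flag-Ago2 and control libraries could not be separated, so Cre-dependent signal and background cannot be told apart in the marker clusters. The cells that these clusters come from are therefore not known.

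Seeds of other brain families shared the let-7 clusters about as often as other clusters of their width. Of the 387 clusters, 306 held a match to at least 1 of 23 further families (79.1%, Wilson interval 74.7 to 82.8), against 77.4% of the others, or 82.3% at let-7 widths. The miR-124 seed was the most frequent companion, in 65 clusters, or 16.8% (13.4 to 20.8), against 13.2% of other clusters at let-7 widths. For miR-181 it was 11.4% (8.58 to 14.9) against 8.44%. The miR-16 seed stood on the other side, at 9.04% (6.57 to 12.3) against 12.5%. These were the 3 of 23 families whose interval did not include the level of the others. No family was tested, and no allowance was made for comparing 23 of them. The miR-9 seed was in 10.6% (7.91 to 14.1) against 8.08%, the miR-128 seed in 14.2% (11.1 to 18.04) against 15.8%, and the miR-27 seed in 15.0% (11.8 to 18.9) against 15.1%. The 6-mer of miR-30 shares 3 end bases with that of let-7, so those matches can overlap; it was in 4.91% against 4.57%. No other brain family was matched in 81 let-7 clusters and 33 clusters held 5 or more.

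**Figure D4:**
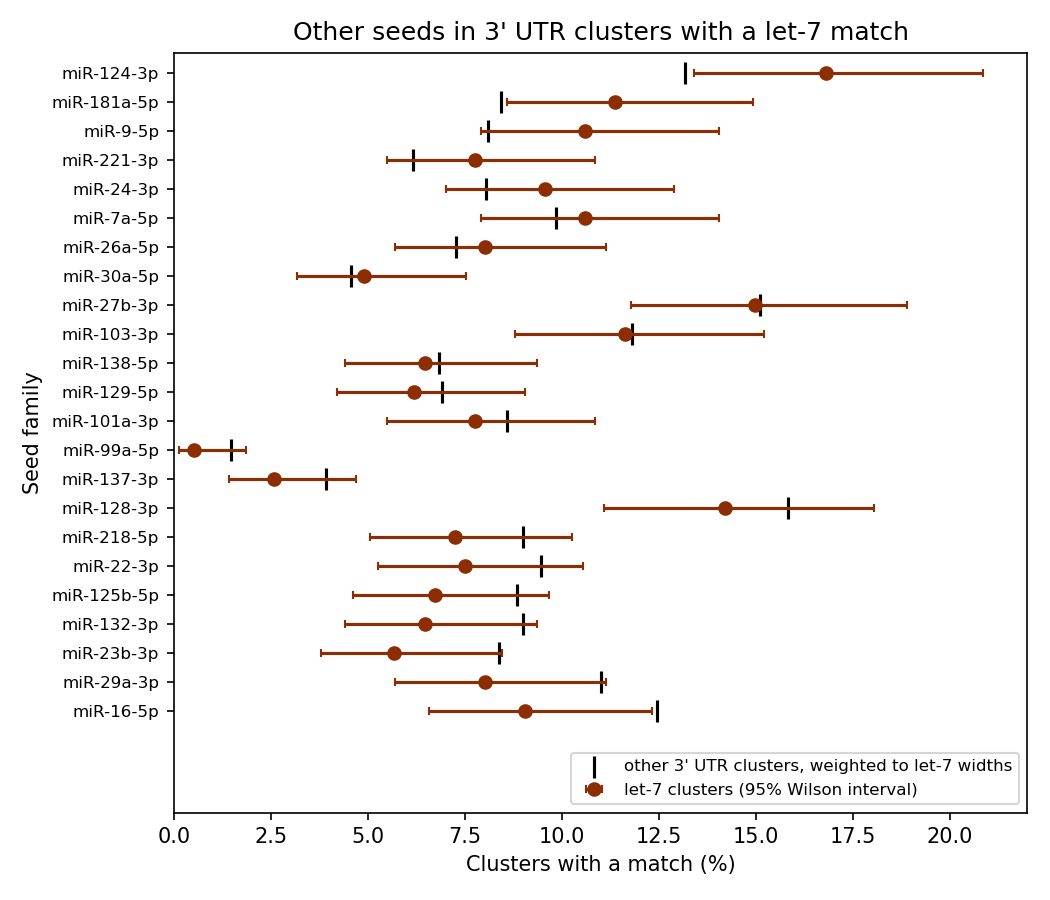
Percent of clusters with a match (x axis) for 23 other brain families (y axis): points are the 387 let-7 clusters with 95% Wilson intervals, and ticks are the other 3' UTR clusters weighted to let-7 widths. Ticks lie outside the interval for miR-124 (16.8% against 13.2%), miR-181 (11.4% against 8.44%) and miR-16 (9.04% against 12.5%).

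The sequence around the sites differed little between sites in and out of clusters. Sites in clusters lay in shorter 3' UTRs, closer to the stop codon and also to the 3' UTR's end. Neither was tested. The share of A and T in the 30 bases on either side had a median of 53.3% both for the 356 sites in a cluster (quartiles 45.0 and 58.3) and for the 2610 outside (46.7 and 60.9). The 4 bases complementary to let-7a bases 13 to 16, which can add pairing at the 3' end of the miRNA, lay opposite them within a shift of 2 bases in 5 of 356 sites (1.40%, Wilson interval 0.601 to 3.25) and 50 of 2610 (1.92%, 1.46 to 2.52). Sites in clusters lay within 1000 bases after the stop codon in 175 of 356 cases (49.2%, 44.0 to 54.3), against 1024 of 2610 outside (39.2%, 37.4 to 41.1). Their 3' UTRs had a median length of 2586.5 bases, against 3253. The median distance to the 3' UTR's end was 1253.5 bases in clusters and 1376.5 outside. As a share of the 3' UTR's length, the median position was 46.0% in clusters and 49.4% outside. Near the stop 18.4% of 8mers lay in a cluster (12.9 to 25.6) and beyond it also 18.4% (13.3 to 24.8), intervals wide enough to hold a difference. The 6mers had 13.4% (10.7 to 16.7) near the stop and 8.31% (6.52 to 10.5) beyond.

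Within the table, let-7 matches were densest in 3' UTR and coding clusters. Each cluster was counted once, under the first label it carries in the order 3' UTR, coding sequence, 5' UTR, intron and antisense. The 3' UTR clusters held 0.257 matches per kb and coding clusters 0.240, against 0.114 in 5' UTR clusters, 0.145 in introns, 0.152 in antisense clusters and 0.1495 in clusters with no annotation. Of the 387, 279 carried the 3' UTR label alone (72.1%, Wilson interval 67.4 to 76.3), against 75.7% of the other 3' UTR clusters. Coding sequence was also named by 72 (18.6%, 15.0 to 22.8), against 15.9% of the others. An intron was also named by 50 (12.9%, 9.94 to 16.6), against 10.5%. A circRNA identifier was attached to 17 (4.39%, 2.76 to 6.92), against 4.47% of the others. The let-7 genes themselves were not seen: 0 of 15 hairpins of the group overlapped a cluster of any kind on their strand, in a table that lists no cluster under 10 reads.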

How the data were processed

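The deposited table gives a whole-number count of reads per cluster; per the submitters' processing notes, the authors aligned reads with BWA to mm10. The BWA version is not given in the sources used here. Nor is it stated how clusters were called and from which libraries, or whether controls served as background and duplicate reads were removed. The table has 0 columns of a single library, so depth per library is unknown. The miRNA columns are the authors' numbers of seed matches, per the file headers.

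Sites were found by searching GENCODE M21 transcripts (GRCm38, the same assembly as mm10) for the 6-mer, placed on the genome, and counted as in a cluster at an overlap of at least 1 base on the same strand. The search was checked on simulated transcripts. Shares carry 95% Wilson intervals, and medians exact binomial intervals. Python 3.11.15, pandas 2.3.3 and scipy 1.17.1 were used. Alternatives covered the 3' UTR label, the overlap, a minimum of 20 reads, widths up to 200 bases, genes as units and other depth thresholds.

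The members and gene lists were chosen with earlier results of these data known. Named by rule are the 10 deepest clusters, the 10 deepest 8mer clusters, genes with 3 or more let-7 clusters and at most 4 members of each list. Other names were chosen after their values were seen: the remaining known targets, which are given in full, and the genes described as such. At most 12 sites are printed. Some members that these rules name are not reported here.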

Additional observations from a re-analysis of the deposited data

Results flagged for a closer look

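Signal outside the 3' UTR clusters: among 254 clusters with a let-7 match and no gene annotation, the deepest held 445 reads over 87 bases, at chr9:67668308-67668394 (mm10, minus strand). Among 47 let-7 clusters that lie opposite a gene, the deepest held 164 reads over 157 bases, at chr8:25768474-25768630 (plus strand), opposite Bag4. The table gives no value for the controls alone, so neither cluster was compared with a background.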

How the results depend on the processing

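No paired analysis was possible because the table has no column of a single library; leaving out replicates was not possible for the same reason. Of 63 alternatives, 44 stayed within the interval of the reported value, 18 moved outside it and 1 turned in sign: the excess of let-7 clusters with another brain family, 1.72 percentage points, became -3.23 at let-7 widths. The let-7 share of 4.17% was 2.65% for matches longer than the 6-mer, 3.28% for clusters of at most 200 bases and 7.59% with genes as units. The difference in median reads, 3, was 7 with 1 cluster per gene, its deepest, and 0 at let-7 widths. The excess of deep clusters, 2.04 percentage points, was 6.61 at 50 reads. At 20 reads, the miRNA machinery and axon guidance lists had 0% with let-7. The share of sites in a cluster was 9.84% (8mer), 7.84% (7mer-m8), 7.42% (7mer-A1) and 6.24% (6mer) at 20 reads. With the 3' UTR label alone it was 9.05% (7mer-m8), 9.67% (7mer-A1) and 7.95% (6mer). Near the stop codon it was 15.5% (7mer-m8) and 13.4% (6mer), and beyond 9.84% and 8.31%. The alternatives for sites in clusters were chosen after seeing the data. Shares of sites in a cluster can only fall when clusters are left out, and the wide intervals of small gene lists are hard to leave. The tally is therefore no measure of stability. A single count per cluster limits every value.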

Other observations

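By reads per 100 bases, the order of the deepest let-7 clusters changes. Below Fndc3a, Nap1l1 and Synj2 were Shc2, an adaptor of receptor signalling, with 85.8 and a 6mer, and the junction protein gene Tjp1 with 73.8 and a 6mer. Further down were Nr6a1 with 63.7 and Efhd2 with 56.5, from 35 reads over 62 bases with an 8mer at the edge. These genes were named after their values were seen.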
